A study of Mus musculus with 221 samples.

Results

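The comparison covers mouse early 2-cell embryos made by in vitro fertilization, 84 of them sired by males on a high-fat diet (HFD) and 99 by males on a low-fat diet (LFD). The HFD embryos compared are 38.01% of all embryos in the series. The 84 HFD embryos are those whose title number lies from 1 to 30 (27 embryos) or from 71 to 130 (57 embryos). The 38 HFD embryos numbered 31 to 70 were left out, a run chosen by the summed level of mitochondrial transfer RNAs other than mt-Ts1, which set it apart from the other embryos. All LFD embryos were kept, 39 of them with numbers from 31 to 70. The question was which differences between the diets of the sires are still measured without that run of HFD embryos.

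Every embryo, HFD and LFD alike, is labelled with a C57BL/6N nuclear genome and mitochondrial DNA of the Staudach (ST) strain, which is the mitochondrial DNA of the egg donors. According to the study's methods, the sires were kept on HFD or LFD for a short period before sperm was collected, sperm of a few males per diet was frozen and thawed, and on each fertilization date a single HFD male and a single LFD male were used. The diet was given to the sires alone, so a group describes the father and not the food of the embryo or its mother. The labels do not give the sire, the date or the sex of an embryo. The p-values below therefore treat embryos as independent, and differences between single sires and differences between diets cannot be told apart. The numbers in the titles are used only as numbers, since no label calls a run of them a batch.

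The mitochondrial genome is transcribed from both strands as long precursors, from which the ribosomal RNAs, the messenger RNAs and the transfer RNAs are cut. Its messenger RNAs encode core subunits of the respiratory chain and of ATP synthase, while the remaining subunits come from nuclear genes. In the early 2-cell mouse embryo most RNA was stored by the oocyte and is being degraded. The embryonic genome has just become active, and most of the mitochondria come from the egg.

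The libraries used were of like depth. The deposited gene counts summed to between 2296020 and 13155271 per HFD embryo (median 5831589) and to between 1937251 and 17246791 per LFD embryo (median 5701723). A count was found for 19063 ± 1038 genes in HFD embryos and for 18511 ± 1600 genes in LFD embryos (mean ± SD), a difference of 553 genes (2-sided permutation test, p = 0.00667, adjusted over 7 such tests p = 0.0467). The labelled stage was checked on its markers. The summed level of 2-cell-stage transcripts, such as the Zscan4 genes, was 11.87 ± 0.33 against 11.85 ± 0.31 log2(CPM + 0.5), and that of maternal transcripts 14.6 ± 0.24 against 14.6 ± 0.25. The log2 ratio of the first sum to the second averaged -2.74 ± 0.36 in both groups (difference 0.0027, permutation test p = 0.96). Timing of early development, as far as this ratio measures it, was not detectably different. Here CPM stands for an embryo's gene counts scaled to a common total.

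The measure that chose the run no longer separated the diets. The summed mt-tRNA level without mt-Ts1 was 6.55 ± 0.56 log2(CPM + 0.5) in the 84 HFD embryos (lowest 5.21, median 6.55, highest 8.46) and 6.46 ± 0.52 in the 99 LFD embryos (lowest 4.74, median 6.46, highest 7.85). The groups overlapped nearly throughout, with 47 of 84 HFD embryos above the LFD median and 4 past the top LFD value. In the 38 embryos left out the same level was 7.83 ± 0.54, and with all HFD embryos the mean was 0.48 above LFD instead of 0.09. These levels chose the embryos and are given without a test. At the edges of the run, HFD embryos numbered 21 to 30 averaged 6.98 and those numbered 71 to 80 averaged 6.85, both kept. Those numbered 31 to 40 averaged 7.72 and those numbered 61 to 70 averaged 7.81, both left out.

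The other classes of mitochondrial RNA behaved differently when the run was left out. Because they come from the same genome and the same contrast as the measure that chose the run, they too are described without a test.

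**Figure D1:**
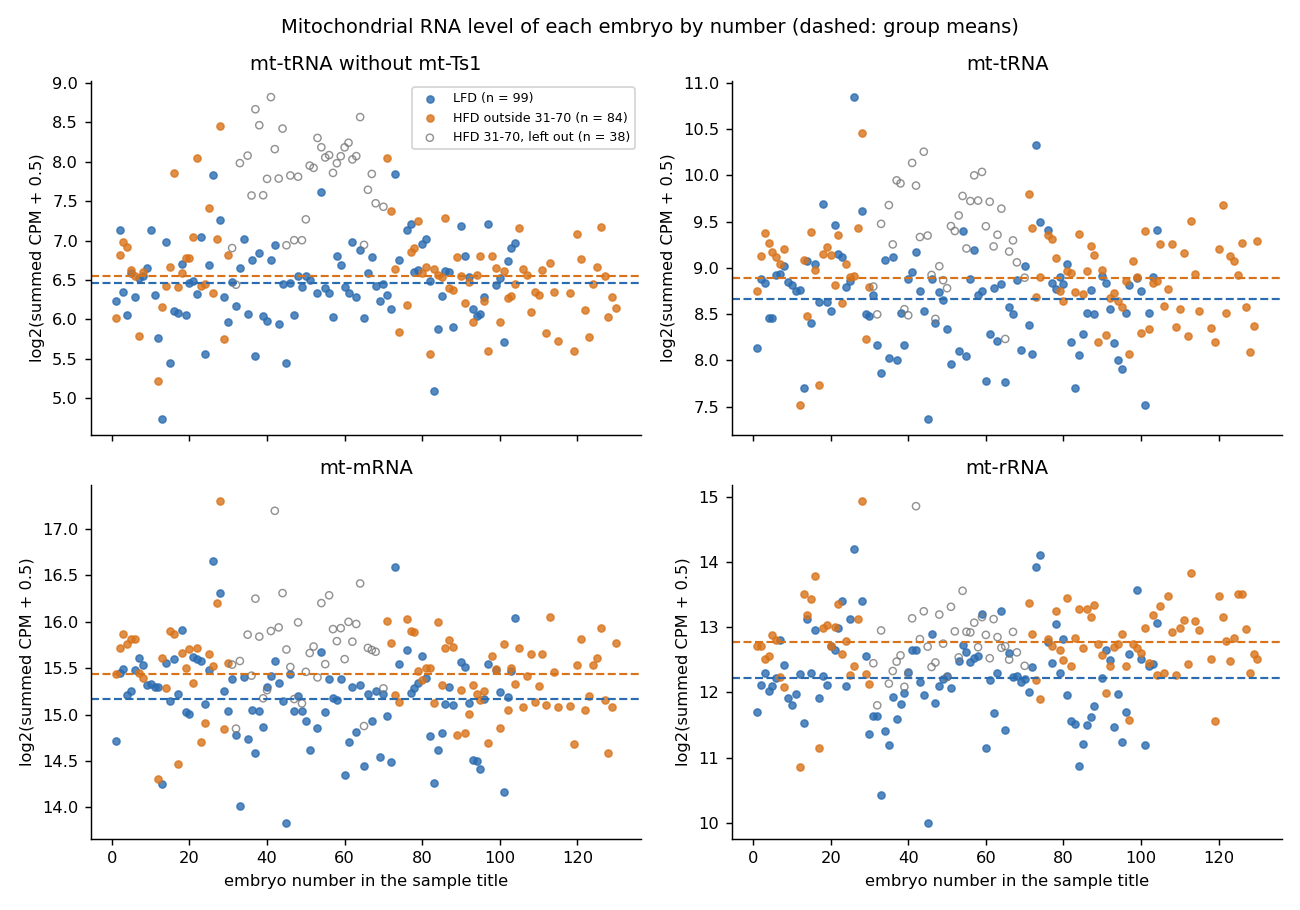
Summed level of 4 classes of mitochondrial RNA, log2(CPM + 0.5), in each embryo against the number in its title, with LFD embryos in blue, the HFD embryos used in orange and the HFD embryos left out as open circles; dashed lines are the means of the LFD and of the used HFD embryos. The open circles stand above the rest in mt-tRNA without mt-Ts1, whereas in mt-rRNA the orange points average 12.8 against 12.2 for the blue points without them.

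Ribosomal RNA of the mitochondria, made by mt-Rnr1 and mt-Rnr2, kept its whole difference. Its summed level was 12.77 ± 0.59 in HFD embryos (lowest 10.9, median 12.7, highest 14.9) and 12.23 ± 0.70 in LFD embryos (lowest 10.001, median 12.2, highest 14.2). The mean difference of 0.54 was also 0.54 with all HFD embryos, and 75 of 84 HFD embryos lay above the LFD median, although the ranges overlapped. The HFD mean was higher in 6 of the 7 runs of 10 numbers that hold both diets, by up to 1.39 for numbers 81 to 90, and lower by 0.17 for numbers 71 to 80.

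Messenger RNA of the mitochondria lay at 15.44 ± 0.45 in HFD embryos (lowest 14.3, median 15.5, highest 17.3) and at 15.17 ± 0.48 in LFD embryos (lowest 13.8, median 15.2, highest 16.7). That is a difference of 0.27, against 0.36 with all HFD embryos, and 57 of 84 HFD embryos were above the LFD median. The HFD mean was higher in 6 of 7 runs of 10 numbers. As a share of all counts, mitochondrial genes took 5.47% ± 2.06 in HFD embryos and 4.48% ± 1.66 in LFD embryos, with a wide overlap.

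The whole mt-tRNA level, in which mt-Ts1 has the largest part, was 8.89 ± 0.46 in HFD embryos and 8.66 ± 0.54 in LFD embryos. The difference of 0.23 compares with 0.37 when all HFD embryos are used. Without the 39 LFD embryos numbered 31 to 70, whose mean mitochondrial levels were below those of the other LFD embryos, the differences were 0.44 for mt-rRNA, 0.16 for mt-mRNA, 0.14 for mt-tRNA and 0.07 for mt-tRNA without mt-Ts1.

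Of the 22 mt-tRNA genes in the table, 10 had enough counts to be fitted. The study's library protocol captures polyadenylated RNA, so counts on a tRNA gene can come from precursors and from neighbouring transcripts as well as from the mature molecule. The 3 genes on which the tRNA results turn have the following sense sequences, printed with the anticodon in capitals, because mt-Tm and mt-Tq had the largest tRNA fold changes while the run was included and mt-Ts1 had the highest level of all of them. The sequences are those of the GENCODE annotation of GRCm38, a C57BL/6J mitochondrial genome, and not those of the ST strain.
mt-Tm: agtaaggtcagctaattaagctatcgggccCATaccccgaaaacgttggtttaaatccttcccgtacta
mt-Tq: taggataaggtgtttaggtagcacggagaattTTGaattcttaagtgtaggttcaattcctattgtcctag
mt-Ts1: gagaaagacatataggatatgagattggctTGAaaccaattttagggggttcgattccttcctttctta
The gene mt-Tm, for methionine, covers MT:3845-3913 on the plus strand. The gene mt-Tq, for glutamine, covers MT:3772-3842 on the minus strand, next to it. The gene mt-Ts1, for serine, covers MT:6870-6938 on the minus strand and lies beside mt-Co1.

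The log2 fold change of mt-Tq was 0.24 (SE 0.10) without the run and 0.86 (SE 0.11) with it. Its level ran from 3.75 to 7.18 in HFD embryos (median 5.25) and from 3.45 to 6.44 in LFD embryos (median 5.08). For mt-Tm the log2 fold change was 0.57 (SE 0.12) without the run and 1.0 (SE 0.12) with it. This was the largest difference left among the tRNA genes, with medians of 3.04 and 2.71. For mt-Ts1 it hardly moved, at 0.27 (SE 0.09) without and 0.29 (SE 0.08) with the run. The lowest was mt-Ta, for alanine, at -0.02 without the run and 0.09 with it. Near it, mt-Tt and mt-Tp, for threonine and proline, were at 0.02 (SE 0.11) and 0.07 (SE 0.10) without the run, against 0.47 and 0.49 with it. The fold change was smaller without the run for 9 of the 10 tRNA genes.

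For the ribosomal RNAs the order was the other way round. The gene mt-Rnr1 for the small-subunit 12S RNA stood at 0.80 on that scale (SE 0.13), against 0.72 (SE 0.12) with all HFD embryos, its medians being 9.65 (HFD) and 8.98 (LFD). The gene mt-Rnr2 for the large-subunit 16S RNA was at 0.52 (SE 0.10), against 0.50 (SE 0.09). Both were therefore as large without the left-out embryos as with them.

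All 13 mt-mRNA genes had a positive log2 fold change, from 0.08 to 0.49 with a median of 0.34, against a median of 0.36 with all HFD embryos. The larger ones were mt-Atp8 at 0.49 (SE 0.09), a subunit of ATP synthase, mt-Nd4l at 0.44 (SE 0.09), a subunit of complex I, and mt-Co3 at 0.42 (SE 0.09), a subunit of complex IV. The gene mt-Cytb, for cytochrome b of complex III, was at 0.23 (SE 0.08) after 0.51 (SE 0.09). The gene mt-Nd6, the one mRNA gene on the strand opposite to the others, was at 0.08 (SE 0.11) after 0.33 (SE 0.11). The gene mt-Nd5 was at 0.17 (SE 0.09), and its HFD mean was higher in only 2 of 7 runs of 10 numbers, whereas mt-Atp6, mt-Atp8, mt-Nd4 and mt-Nd4l were higher in 7 of 7.

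Nuclear copies of mitochondrial DNA were fitted as well. The 3 copies with enough counts, Gm10925, Gm29216 and Gm13340, had log2 fold changes of 2.58 (SE 0.29), 1.21 (SE 0.20) and 0.67 (SE 0.16). Reads of such copies and of the mitochondrial genes they resemble can be assigned to either. The value for Gm10925 rested on few embryos, since its medians were 1.99 (HFD) and 1.66 (LFD) and its fold change was 0.50 with HFD embryos 1 to 30 alone.

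**Figure D2:**
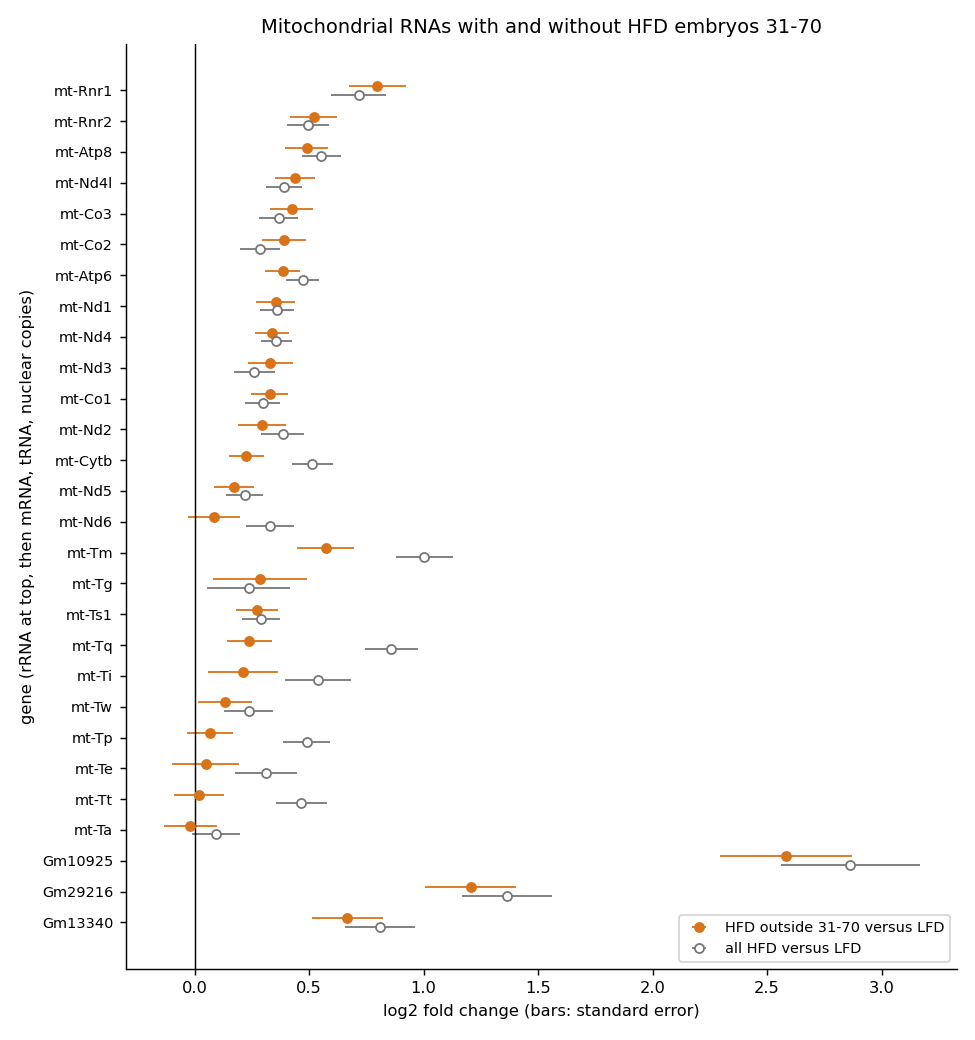
Log2 fold change of each fitted mitochondrial gene and of 3 nuclear copies, with its standard error, for the HFD embryos used against LFD (filled) and for all HFD embryos against LFD (open). Filled and open points lie together for the rRNA genes, whereas for mt-Tq they stand at 0.24 and 0.86.

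Among nuclear genes, which had no part in the choice of the run, small differences remained. Of 14795 nuclear genes tested, 161 were called by edgeR's quasi-likelihood test at a false discovery rate (FDR, Benjamini-Hochberg) of 0.05, which is 1.09% of them. Of these 46 were higher (0.311%) and the others lower (0.777%) in HFD embryos. A log2 fold change here is the ratio of fitted counts, so embryos with very high counts weigh strongly in it. Over the called genes it ran from -1.37 to -0.19 on the lower side (median -0.41) and from 0.13 to 2.76 on the higher side (median 0.40). Over all nuclear genes tested the median was 0.02. With all HFD embryos 294 of 14792 nuclear genes (1.99%) were called, 139 higher (0.94%) and 155 lower (1.05%). Of the 161 genes, 99 were in both lists, which is 61.5% of the shorter list and 33.7% of the longer one. Both comparisons use the same LFD embryos and the same 84 HFD embryos, so this count describes only what leaving out 38 embryos did.

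Leaving out the LFD embryos numbered 31 to 70 as well, so that both diets miss the same numbers, lowered the calls to 45 of 15072 genes (0.299%), 14 higher (0.0929%) and 31 lower (0.206%), of which 41 were among the 161. For 28 of the 161 genes the call also held in that comparison, in limma-voom and in limma-voom with runs of 10 numbers as a random term. Of these 24 were lower and 4 higher.

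**Figure D3:**
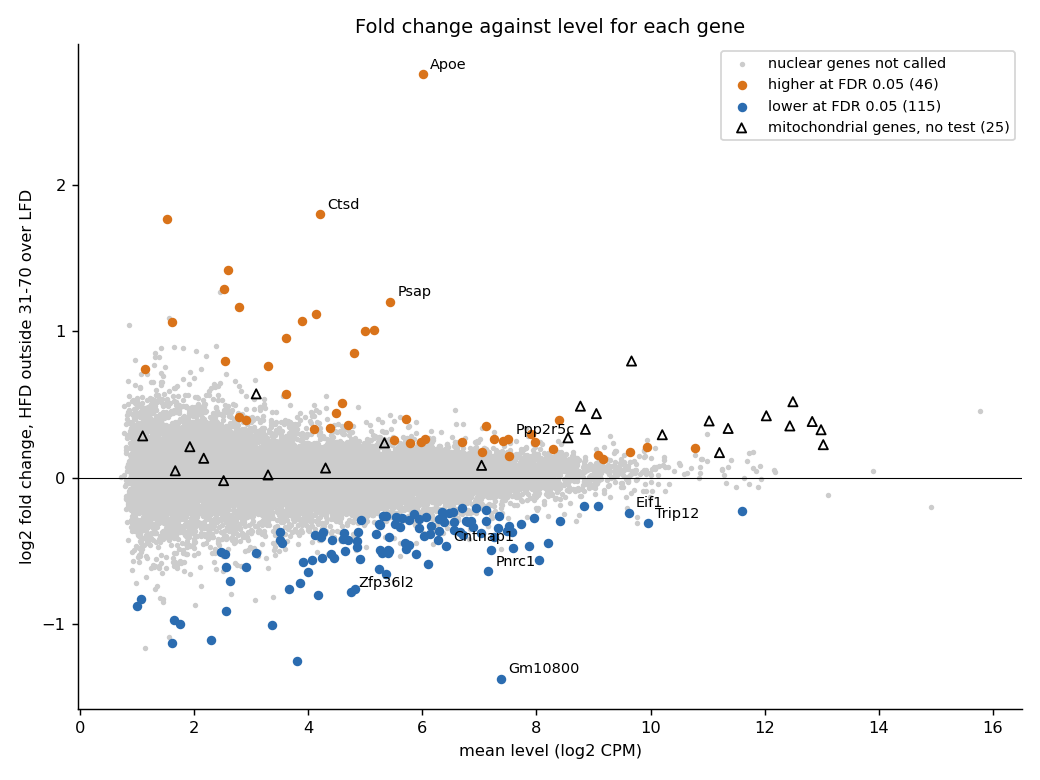
Log2 fold change of the HFD embryos used over LFD against mean level in log2 CPM for each tested gene, with the 46 genes higher and the genes lower at FDR 0.05 in colour and the mitochondrial genes, not tested, as triangles. Most called genes lie within 1 log2 unit of 0 and below it, whereas Apoe, Ctsd and Psap stand far above.

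Most of the called genes fell. The gene Trip12, for a ubiquitin ligase (GRCm38, 1:84721189-84840516), ranged from 8.35 to 10.5 log2(CPM + 0.5) in HFD embryos with a median of 9.74, and from 8.95 to 10.8 in LFD embryos with a median of 10.1. The ranges overlapped, but 78 of 84 HFD embryos lay below the LFD median, and the HFD mean was lower in each of the 7 runs of 10 numbers with both diets. Its log2 fold change was -0.31 (SE 0.05, FDR = 1.06e-06). In the left-out HFD embryos its mean was 10.053, near the LFD mean of 10.075, against 9.71 in the embryos used.

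The gene Eif1, for a factor that helps the ribosome choose the start codon (11:100319885-100322096), ranged from 8.10 to 9.89 in HFD embryos (median 9.43) and from 8.69 to 10.4 in LFD embryos (median 9.79). It fell by 0.24 on the log2 scale (SE 0.04, edgeR FDR = 4.58e-06), with 79 of 84 HFD embryos below the LFD median. It was called also with HFD embryos 1 to 30 alone (log2 fold change -0.31) and with 71 to 130 alone (-0.22). In the left-out embryos its mean was 9.67, near the LFD mean of 9.72.

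The gene Cntnap1, for a protein of the axon surface (11:101170523-101190724), had a median of 6.11 in HFD (range 3.07 to 7.79) and of 6.65 in LFD embryos (range 3.80 to 7.67). It fell by 0.47 (SE 0.08, edgeR FDR = 4.95e-05), with 80 of 84 HFD embryos below the LFD median, and was lower in 7 of 7 runs of 10 numbers. Cntnap1 was as low in the left-out embryos, with a mean of 6.08 against 6.01 in the embryos used and 6.53 in LFD.

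The gene Ccnk, for cyclin K, a partner of kinases that act on elongating RNA polymerase II (12:108179579-108203359), had medians of 6.03 (range 4.53 to 6.89) and 6.5 (range 3.97 to 7.10). It fell by 0.42 (SE 0.07, edgeR FDR = 3.03e-06), and was lower in 5 of the 7 runs. The gene Gga3, for a clathrin adaptor of the Golgi (11:115584255-115604051), had medians of 5.95 (range 4.69 to 6.84) and 6.29 (range 4.03 to 7.13) and fell by 0.33 (SE 0.06, edgeR FDR = 1.61e-05), in 7 of the 7 runs. In both, between 76 and 78 of 84 HFD embryos lay below the LFD median while the ranges overlapped. For Ccnk the left-out embryos averaged 6.30, against 5.94 in the embryos used and 6.40 in LFD. For Gga3 these means were 6.00, 5.89 and 6.27.

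Larger falls were seen in genes with wider spread. The gene Zfp36l2, for an RNA-binding protein that promotes decay of mRNAs with AU-rich elements (17:84183931-84187947), had a median of 4.04 in HFD (range 0.27 to 5.87) and of 4.83 in LFD embryos (range 1.36 to 6.97). It fell by 0.78 (SE 0.15, edgeR FDR = 0.000219), to like means in embryos 1 to 30 (4.0) and 71 to 130 (3.98), whereas the left-out embryos averaged 4.57 against 4.71 in LFD. Its HFD mean was lower in 4 and higher in 3 of the 7 runs of 10 numbers. The gene Pnrc1, for a cofactor of mRNA decapping and of nuclear receptors, had medians of 6.54 (range 5.25 to 8.30) and 7.28 (range 4.20 to 9.44) and fell by 0.64 (SE 0.12, edgeR FDR = 0.000219). The fall was larger in embryos 71 to 130 (mean 6.42) than in 1 to 30 (mean 6.94), a difference that was not tested. It was lower in 6 of the 7 runs.

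The gene Pdxp, for pyridoxal phosphatase, fell by 0.80 (SE 0.16, edgeR FDR = 0.000413), with 68 of 84 HFD embryos below the LFD median. The X-linked gene Ubqln2, for a carrier of ubiquitinated proteins, fell by 0.76 (SE 0.13, edgeR FDR = 5.15e-05), and the left-out embryos averaged 5.02 against 4.83 in LFD and 4.11 in the embryos used. The gene Rhobtb2, for an adaptor of a ubiquitin ligase, fell by 0.64 (SE 0.12, edgeR FDR = 0.000114), and Gm17494, a predicted gene, by 0.72 (SE 0.15, edgeR FDR = 0.000752). Ubqln2 was lower in 6 of the 7 runs, and Pdxp, Rhobtb2 and Gm17494 in 5. In the left-out embryos Pdxp averaged 4.33, Rhobtb2 4.09 and Gm17494 3.80, against LFD means of 4.17, 4.08 and 3.85.

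Other genes with large falls lost their call in some comparisons. Cdkn1c, for an inhibitor of cyclin-dependent kinases, Wrnip1 and Klrg2 had log2 fold changes of -1.01, -0.76 and -0.66, and Gm10800 and Gm10801 of -1.37 and -1.25. None of these 5 was called once LFD embryos 31 to 70 were left out or in limma-voom. In the former comparison Cdkn1c and Klrg2 stood nearly as low, at -0.99 and -0.61, while Wrnip1, Gm10800 and Gm10801 were at -0.52, -0.81 and -0.89. In limma-voom Cdkn1c, Wrnip1 and Klrg2 were at -0.53, -0.46 and -0.52 and Gm10800 and Gm10801 at -0.65 and -0.82. Gm10800 and Gm10801 lie in a repeat-rich stretch of chromosome 2 and their counts are uncertain. In the left-out HFD embryos Gm10800 averaged 7.72, above 6.66 in LFD and 5.96 in the HFD embryos used, and with all HFD embryos its log2 fold change was -0.23 (edgeR FDR = 0.765).

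Some further genes among the lower ones were chosen for their known roles after their values were seen. The gene Eif4e1b, for a cap-binding protein of oocytes and early embryos, had a median of 7.61 in HFD (range 5.54 to 8.95) and of 8.17 in LFD embryos (range 6.12 to 9.80). It fell by 0.56 (SE 0.10, edgeR FDR = 5.09e-05), and was lower in 7 of 7 runs. Its mean was 8.16 in LFD embryos, 7.88 in HFD embryos 1 to 30 and 7.32 in 71 to 130, and 8.16 in the left-out embryos.

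Genes for RNA handling among the lower ones include Srsf2, a splicing factor, and Tent5b, of a family of poly(A) polymerases. Srsf2 fell by 0.59 (SE 0.11, edgeR FDR = 0.000152) and Tent5b by 0.48 (SE 0.10, edgeR FDR = 0.00189). In the left-out embryos Srsf2 averaged 6.11 against 6.13 in LFD, and Tent5b 7.39 against 7.64. Zc3h12a, for an endoribonuclease, fell by 0.55 and Lin28a, for a binder of let-7 precursors, by 0.37. Of the machinery of transcription, Med14, a scaffold subunit of Mediator, fell by 0.36 (edgeR FDR = 0.000594) and Polr2a, the largest subunit of RNA polymerase II, by 0.47 (edgeR FDR = 0.0334). Anapc1, of the anaphase-promoting complex, fell by 0.33 and Cltc, the clathrin heavy chain, by 0.34. Srsf2, Tent5b, Med14, Anapc1 and Cltc are among the 28 genes whose call also held without LFD embryos 31 to 70 and in both limma-voom fits, and Polr2a, Zc3h12a and Lin28a are not.

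**Figure D4:**
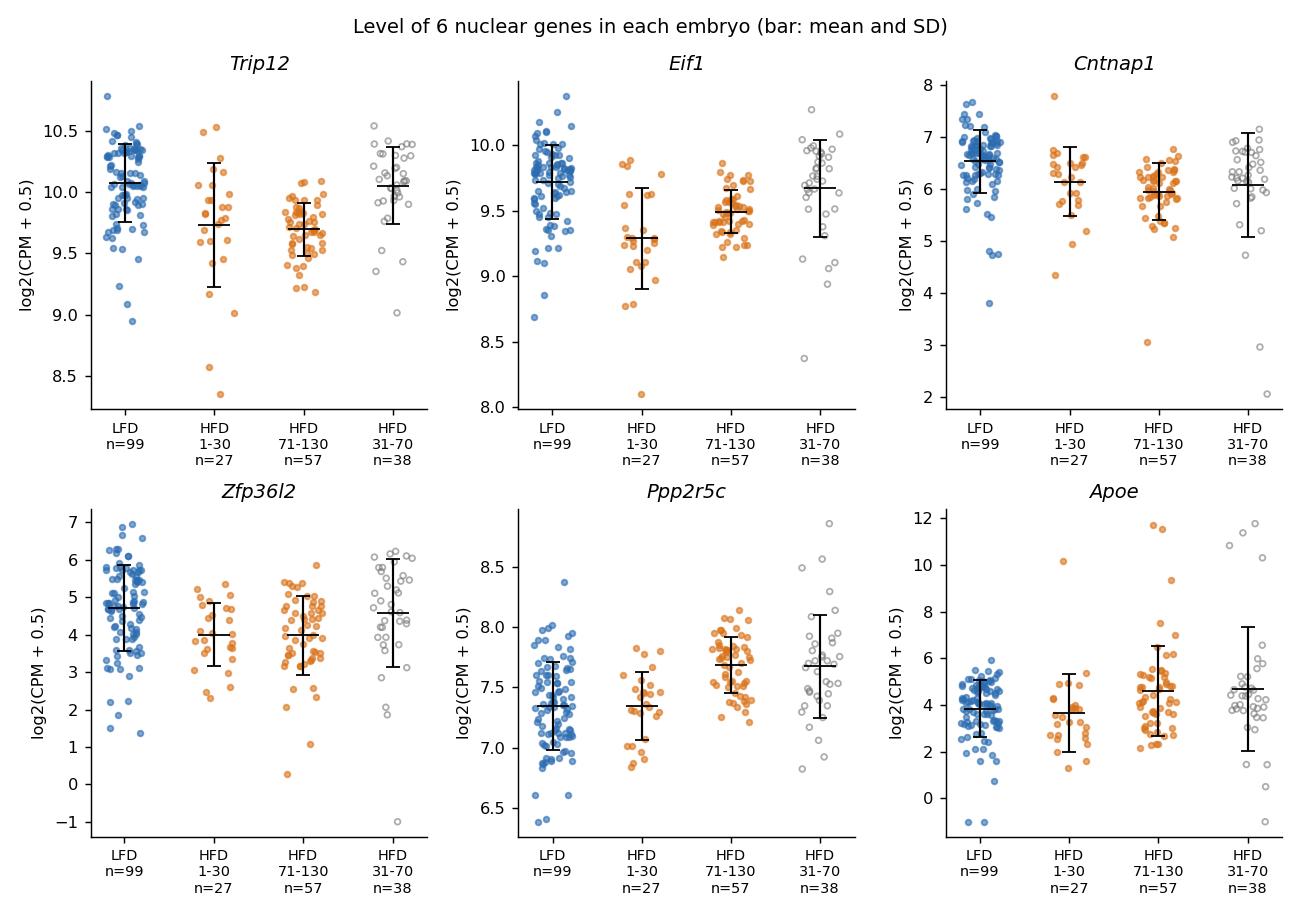
Level of 6 nuclear genes, log2(CPM + 0.5), in each embryo of 4 groups (LFD, HFD 1 to 30, HFD 71 to 130, and HFD 31 to 70, left out), with bars for mean and SD. Trip12, Eif1 and Zfp36l2 lie lower in both kept HFD groups than in LFD, Ppp2r5c lies higher in HFD 71 to 130, and Apoe is high in a few HFD embryos only.

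The genes that rose are described in 2 groups by size, with a cut that serves the description only. There were 17 with a log2 fold change above 0.7 and 29 below it. Of the first 17, 8 belong to the list of macrophage and lysosome markers, of which 17 were tested: Apoe, Ctsd, Psap, Mmp12, Lgals3, Grn, Gpnmb and Cd68. These 8 are 47.1% of the markers tested, where 0.311% of all nuclear genes were called higher. The list was chosen with earlier results of these data known, and Apoe, Ctsd, Mmp12 and Cd68 had been named in them. Its share of calls is therefore a description and not independent support. The median log2 fold change over the list was 0.46, against 0.02 over all nuclear genes tested. Cst3, Creg1, Hexa, B2m and H2-D1, whose products act in lysosomes or in antigen presentation, are among the others.

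The large rises came with small differences between medians. Of the 17 genes, 15 had medians less than 0.5 apart, and for each of them between 2 and 10 HFD embryos exceeded every LFD embryo. Apoe, for a lipid carrier protein (7:19696109-19699188), ranged from 1.30 to 11.7 in HFD embryos with a median of 3.96, and from -1.0 to 5.94 in LFD embryos with a median of 4.06. The median was thus no higher in HFD embryos, and 9 of 84 lay above the highest LFD embryo. On the fitted log2 scale it rose by 2.76 (SE 0.30, edgeR FDR = 1.78e-12).

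Ctsd, for the lysosomal protease cathepsin D (7:142375911-142388038), had a median of 3.15 in both groups, and ranged up to 9.49 in HFD embryos but only to 4.44 in LFD embryos. Its log2 fold change was 1.80 (SE 0.24, edgeR FDR = 1.21e-08), with 7 of 84 HFD embryos above every LFD embryo. Psap, for the precursor of lysosomal saposins (10:60277627-60302597), had medians of 4.78 and 4.63 and rose by 1.2 on the log2 scale (SE 0.22, edgeR FDR = 0.000151). With HFD embryos 1 to 30 alone it was -0.43, which did not pass the test.

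The summed macrophage and lysosome marker level was 8.80 ± 0.95 in HFD embryos (lowest 8.08, median 8.60, highest 13.2) and 8.60 ± 0.22 in LFD embryos (lowest 8.04, median 8.58, highest 9.14). There were 7 HFD embryos above the highest LFD embryo, 2 of them numbered 1 to 30 and 5 numbered 71 to 130, and they lay between 9.29 and 13.2. Of the 26 markers in the table, 17 had a count in a larger share of HFD than of LFD embryos, 5 in a smaller share and 4 in equal shares. HFD embryos also had a count for more genes in total, on average 19063 against 18511. The like tally over all genes was not made. The median was at no count in both diets for 6 of them, Tyrobp, C1qa, C1qc, Fcer1g, Adgre1 and Trem2, whereas Csf1r and C1qb had a count in 100% and 96.4% of HFD and in 98.99% and 89.9% of LFD embryos. Tyrobp had a count in 8.33% of HFD and 1.01% of LFD embryos, and Cd74 in 84.5% and 89.9%. Without those 7 embryos none of the 17 large rises and none of the macrophage markers were called (edgeR, FDR 0.05). As the 7 were picked by the level of these markers, the loss of the marker calls follows largely from that choice. In the same fit 95 of 14905 nuclear genes were lower and 28 higher. In limma-voom, which works on log values, 2 of the 17 were called, against 20 of the other 29 higher genes and 69 of the lower ones.

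Of the 29 smaller rises, 18 were called also without the 7 embryos high in macrophage markers. Ppp2r5c, for a regulatory subunit of protein phosphatase 2A (12:110447120-110583062), had a median of 7.56 in HFD (range 6.84 to 8.14) and of 7.35 in LFD embryos (range 6.39 to 8.37). It rose by 0.26 (SE 0.05, edgeR FDR = 0.000219), with 67 of 84 HFD embryos above the LFD median. Against all LFD embryos the rise was larger in embryos 71 to 130, at a mean of 7.69, while embryos 1 to 30 averaged 7.35 against 7.34 in LFD. The log2 fold change was 0.33 with embryos 71 to 130 alone and 0.09 with 1 to 30 alone (edgeR FDR = 0.54). Compared within runs of numbers, the HFD mean was higher in 6 of the 7 runs with both diets.

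Oog1, an oocyte-specific gene with close relatives among which reads may be shared, had medians of 7.29 and 7.13 and rose by 0.27 (SE 0.05, edgeR FDR = 0.000875). Med31, a small Mediator subunit, rose by 0.40 (SE 0.08, edgeR FDR = 0.00057) and Dppa2, a chromatin factor that helps start 2-cell transcription, by 0.24 (SE 0.05, edgeR FDR = 0.00384). Dppa2 and Ppp2r5c are 2 of the 4 higher genes whose call also held without LFD embryos 31 to 70 and in both limma-voom fits, the others being Brca2 and Zfp120. With all HFD embryos Dppa2 was not called (edgeR FDR = 0.0707). Plin2, which coats lipid droplets, rose by 0.51 (SE 0.13, edgeR FDR = 0.0165), and Fth1, for the ferritin heavy chain, by 0.40 (SE 0.11, edgeR FDR = 0.0334). Neither Plin2 nor Fth1 was called without the 7 embryos high in macrophage markers, where Fth1 was at -0.02.

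Calls among nuclear genes of energy metabolism are set beside 1.09%, the share of all nuclear genes called by edgeR. At that share, lists of this size hold few or no calls. Of 34 nuclear complex I genes tested none was called by edgeR, DESeq2 or limma-voom, and 4 (11.8%) had an unadjusted edgeR p under 0.05. Over all nuclear genes tested that share was 9.81% (1452 of 14795). Their median log2 fold change was 0.06, against 0.12 with all HFD embryos and 0.02 over all nuclear genes. Ndufb2 was at 0.35 (SE 0.12, edgeR FDR = 0.176) after 0.41 with all HFD embryos, and Ndufb6 at 0.14 (SE 0.07, edgeR FDR = 0.498) after 0.24. Both had passed the test with all HFD embryos.

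Of 43 genes of complexes II to V none was called by the 3 tools, with 4 (9.3%) at an unadjusted edgeR p under 0.05 and a median of 0.06. Cox5b of complex IV was at 0.18 (SE 0.07, edgeR FDR = 0.275), and Atp5b and Atp5md of ATP synthase at 0.14 (edgeR FDR = 0.087) and 0.21 (edgeR FDR = 0.51). Of 79 cytosolic ribosomal protein genes, whose reads can be shared with many pseudogenes, none was called by the 3 tools and 11 (13.9%, against 9.81% of all nuclear genes) had an unadjusted edgeR p under 0.05. Their median was 0.09, with 70 of 79 above 0, against 55.9% of all nuclear genes. Rps27 and Rpl38 were at 0.39 (SE 0.13, edgeR FDR = 0.154) and 0.32 (SE 0.11, edgeR FDR = 0.161), and both had passed with all HFD embryos.

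Of 72 mitochondrial ribosomal protein genes none was called by edgeR and 1 each by DESeq2 and limma-voom, with 6 (8.33%, against 9.81% of all nuclear genes) at an unadjusted edgeR p under 0.05 and a median of 0.03. Mrpl32 was at 0.23 (SE 0.07, edgeR FDR = 0.0505) and Mrpl22 at 0.40 (SE 0.14, edgeR FDR = 0.168). Of 34 genes for mitochondrial transcription and RNA processing none was called by the 3 tools, 3 (8.82%) had an unadjusted edgeR p under 0.05, and the median was -0.001. Trmt10c, a subunit of the enzyme that cuts the 5′ ends of mt-tRNAs, was at 0.22 (SE 0.08, edgeR FDR = 0.152), and Trnt1, which adds the CCA end, at 0.13 (edgeR FDR = 0.33).

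Of 39 genes of glycolysis and the citric acid cycle none was called by edgeR and 1 each by DESeq2 and limma-voom, with 5 (12.8%, against 9.81%) at an unadjusted edgeR p under 0.05. Pfkp, a phosphofructokinase, was at 0.34 (SE 0.10, edgeR FDR = 0.052) and Pgk1 at -0.27 (SE 0.11, edgeR FDR = 0.307). In the list for fatty acid oxidation and lipid storage 1 of 23 was called by edgeR (4.35%, against 1.09%), Plin2, and Echs1, an enoyl-CoA hydratase, was at 0.11 (edgeR FDR = 0.608). The medians of these 2 lists were 0.00 and 0.03.

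The lists for the stage had small median log2 fold changes. Of 29 2-cell-stage transcripts none was called by edgeR, DESeq2 or limma-voom, with 5 (17.2%, against 9.81% of all nuclear genes) at an unadjusted edgeR p under 0.05 and a median of 0.04. Zscan4c was at 0.31 (SE 0.14, edgeR FDR = 0.378) and Pramef6 at 0.27 (SE 0.12, edgeR FDR = 0.376), and both belong to families of near-identical copies. Of 30 maternal transcripts 1 was called (3.33%, against 1.09%), Oog1, and Btg4, an adaptor for deadenylation of maternal mRNA, was at 0.17 (SE 0.05, edgeR FDR = 0.103). Of the 30, 5 (16.7%) had an unadjusted edgeR p under 0.05, and their median log2 fold change was 0.05. In the list of mRNA decay factors and inhibitors of ERK signalling 2 of 31 (6.45%) were called, Zfp36l2 and Pnrc1, both lower, where 1.09% of all nuclear genes were called and 0.777% were lower. Zfp36l2 and Pnrc1 had been named in an earlier account of all embryos, known when the list was chosen, so this share is only a description. The median was 0.02 over the list, and 8 of the 31 (25.8%) had an unadjusted edgeR p under 0.05. Dusp9, a phosphatase of that pathway, was at -0.49 (SE 0.18, edgeR FDR = 0.236), and Cc2d1a, for a transcriptional repressor, at -0.41 (SE 0.13, edgeR FDR = 0.0866), after -0.60 and -0.56 with all HFD embryos, where both had passed.

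Of other cells that a sample could hold, cumulus and granulosa cells left 4 of 18 markers with enough counts to test, none called by the 3 tools and none at an unadjusted edgeR p under 0.05. The summed level of the cumulus and granulosa markers was 6.36 ± 0.66 in HFD and 6.29 ± 0.52 in LFD embryos (permutation test p = 0.371). Its mean was 5.95 in HFD embryos 1 to 30 and 6.56 in 71 to 130, on either side of LFD. Above the highest LFD embryo lay 7 HFD embryos, all of them numbered 71 to 130. The split by range was not tested. Of 11 sperm mRNAs 3 were tested, none called by the 3 tools and 1 at an unadjusted edgeR p under 0.05. Clu was at 1.27 (SE 0.39, edgeR FDR = 0.0837), with medians of 0.98 and 0.63 and 1 HFD embryo above every LFD embryo, and Odf2 at -0.02 (SE 0.05). Prm2 had a count in 63.4% of embryos and too few counts to be tested.

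The embryos' sex is not labelled, and the summed level of Y-linked genes was higher in HFD embryos, at 4.10 ± 2.68 against 3.10 ± 3.02 (permutation test p = 0.0201, adjusted over 7 tests p = 0.0702). None of 6 Y-linked genes was called by the 3 tools or had an unadjusted edgeR p under 0.05, with Zfy2 at 0.56 (SE 0.39) and Uty at 0.54 (SE 0.37). With the Y-linked level in the model 175 nuclear genes were called, 148 of them among the 161. Called genes also differed in base composition: the median GC content of their longest annotated transcripts was 52.8% for the lower genes and 47.5% for the higher ones, against 49.03% over all nuclear genes tested. Each embryo's slope of level on GC content averaged -0.0048 ± 0.12 in HFD and 0.027 ± 0.13 in LFD embryos (permutation test p = 0.0934, adjusted over 7 tests p = 0.163). Above the LFD median lay 23 of 84 HFD embryos, 4 of the 27 numbered 1 to 30 and 19 of the 57 numbered 71 to 130. The part of base composition in the calls was not tested beyond a fit with this slope as a covariate. In that fit 186 genes were called, 73.9% of the 161 among them.

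**Figure D5:**
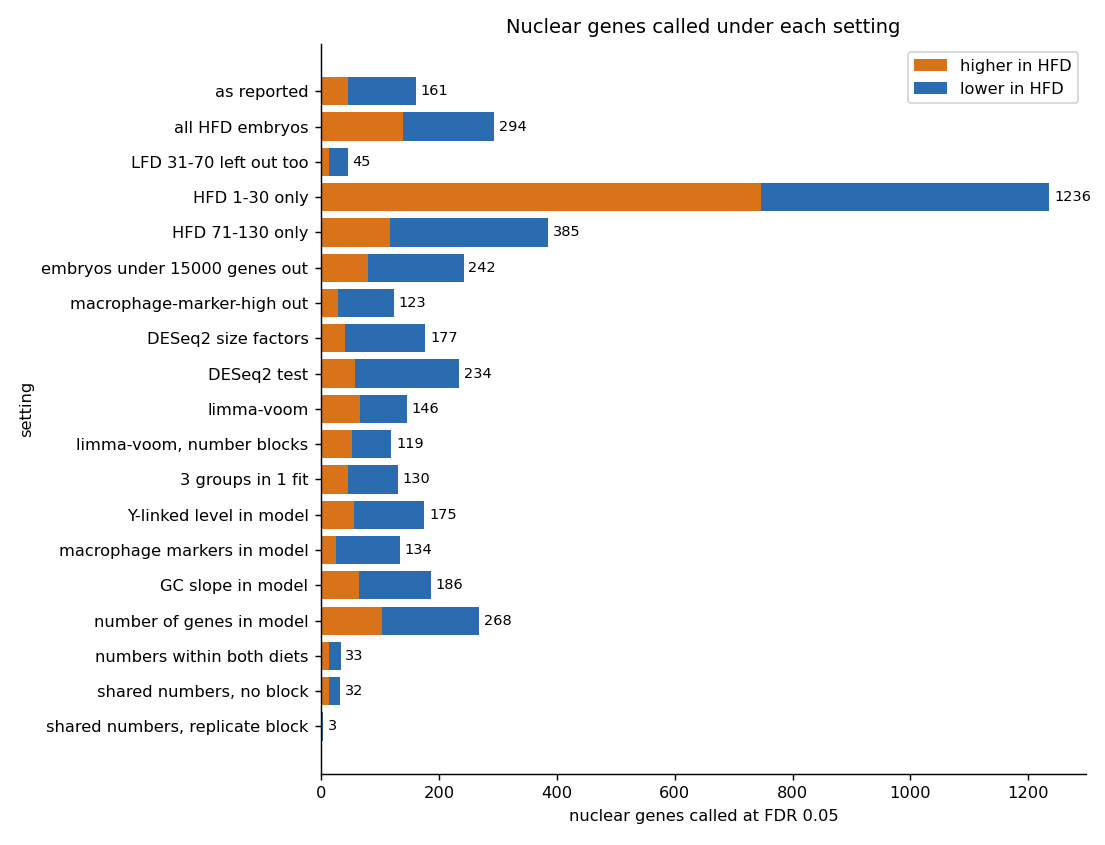
Number of nuclear genes called at FDR 0.05, higher (orange) and lower (blue) in HFD embryos, under each setting except the fit without a low-count filter. The bars run from 3 genes with a replicate block on shared numbers and 45 with LFD embryos 31 to 70 left out to 1236 with HFD embryos 1 to 30 alone, around the 161 reported.

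The 2 kept ranges of HFD embryos did not give equal numbers of calls. Against all LFD embryos, the 27 HFD embryos numbered 1 to 30 gave 1236 of 16696 nuclear genes (7.4%), 747 higher (4.47%) and 489 lower (2.93%), and the 57 numbered 71 to 130 gave 385 of 15421 (2.5%), 117 higher (0.759%) and 268 lower (1.74%). The 2 comparisons share their LFD embryos. Maternal transcripts summed to 14.8 ± 0.25 in embryos 1 to 30 and to 14.5 ± 0.21 in embryos 71 to 130, on either side of 14.6 ± 0.25 in LFD embryos. Their part in the calls was not tested.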

How the data were processed

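Single early 2-cell embryos were sequenced after Smart-seq2 library preparation. Per the labels and the file header, the authors trimmed reads with Trim Galore 0.6.6, aligned them with STAR 2.7.10a to GRCm38 and counted them per gene of Ensembl release 102 with featureCounts 2.0.3. The deposited values are raw counts, used as deposited. The strand setting of the counting was 2 although the protocol does not mark strand, so antisense and overlapping genes are uncertain, and 65.8% of non-zero counts were even. No molecular identifiers were used, so counts of a library are not independent molecules. Groups were taken from the titles and the diet in the labels.

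The test was edgeR 4.0.16 (R 4.3.3; TMM scaling, filterByExpr by group, glmQLFit and glmQLFTest) on 183 embryos, with Benjamini-Hochberg adjustment over all genes fitted and a threshold of 0.05. Mitochondrial genes and nuclear copies of mitochondrial DNA were fitted with the rest and are given without p. Levels are log2(CPM + 0.5). Single values per embryo were compared by 2-sided permutation tests of 100000 resamples. Named genes are, among called nuclear genes averaging 3 log2 CPM or more, 10 per direction by fold change and 6 per direction by p, then 2 per list by p, and genes named in an earlier account of all embryos. The members and lists were chosen with earlier results of these data known. One gene that this rule selects is not reported here. Genes named for other reasons are said to be chosen after their values were seen, as were Cst3, Creg1, Hexa, Med31, Dppa2, Fth1, Brca2 and Zfp120. DESeq2 1.42.0 and limma 3.58.1 were alternatives. The fit was tested on simulated counts. The highest correlation between any 2 embryos was 0.925 (log2 CPM over nuclear genes), so no library was counted as a duplicate. Embryos 31 to 70 of the HFD group entered only the values that name them. GC content and sequences came from GENCODE vM21.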

Additional observations from a re-analysis of the deposited data

How the results depend on the processing

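The count of 161 nuclear genes became 45 without LFD embryos 31 to 70, 33 when in addition HFD numbers above the highest LFD number were left out, 294 with all HFD embryos, 1236 with HFD embryos 1 to 30 alone, 385 with 71 to 130 alone, 242 without embryos of fewer than 15000 genes, 268 with the number of genes as a covariate and 4249 without the low-count filter. Under the other 8 settings without a block it stayed within 1.5 times of 161, with 66 higher and 80 lower in limma-voom. Chosen after seeing the data were the covariates of GC slope and number of genes and the fit without embryos high in macrophage markers. So was the fit without HFD numbers above the highest LFD number.

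No label ties same-numbered HFD and LFD embryos to each other. Among 57 such pairs the correlation of their deviations had a median of 0.03 (from -0.34 to 0.29), and 13 exceeded 0.1. Of the 57 HFD embryos, 1 correlated best with its own number. Whether same-numbered embryos shared a fertilization date or a processing order cannot be told from these values. With the replicate block 3 genes were called (Eif1, Eif4e1b and Daam1), against 32 on the same embryos without it. The same pairing gave mean differences of 0.17 for mt-tRNA, 0.14 without mt-Ts1, 0.19 for mt-mRNA and 0.37 for mt-rRNA, and 283 genes with a count (permutation test p = 0.234).

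The differences in mitochondrial level ran over all settings from 0.14 to 0.37 for mt-tRNA, from 0.015 (HFD 71 to 130) through 0.24 (HFD 1 to 30) to 0.48 (all HFD embryos) without mt-Ts1, while those of mt-mRNA lay between 0.16 and 0.36 and those of mt-rRNA between 0.37 and 0.56, all positive. The difference in genes with a count was 276 for HFD embryos 1 to 30 (permutation test p = 0.396) and -10.5 with all HFD embryos. The 2-cell to maternal ratio, not past the threshold under any setting, was -0.027 with embryos 1 to 30, -0.0041 with all HFD embryos and -0.033 without embryos of few genes. Log2 fold changes turned negative with HFD embryos 1 to 30 alone for Psap (-0.43), H2-D1 (-0.15), Lgals3 (-0.045), Rps27 (-0.15), Trmt10c (-0.12), Plin2 (-0.12), Nr5a2 (-0.27), Clu (-0.90), Atp5md (-0.052) and Hexa (-0.29), and with 71 to 130 alone for Zscan4c (-0.094). Without embryos high in macrophage markers they did so for H2-D1 (-0.27), Cd68 (-0.22), Creg1 (-0.12) and Fth1 (-0.018), and with the macrophage level in the model for H2-D1 (-0.22), Cd68 (-0.11) and Creg1 (-0.041). H2-D1 was at -0.065 in limma-voom and at -0.056 with number blocks in it. Odf2 turned positive without LFD embryos 31 to 70 (0.017), with HFD 71 to 130 (0.0055) and without embryos high in macrophage markers (0.0039). Among mitochondrial genes, Gm10925 went from 2.58 to 0.89 in DESeq2 and to 0.62 in limma-voom. The cause was not tested in any of these.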
